A study of Mus musculus with 9 samples.

Results

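Transcript levels of 10 genes of the YAP and TEAD pathway were followed in 66cl4, a mouse line from a mammary carcinoma that stands for triple-negative breast cancer in the labels. The genes were taken by symbol from a count table of 52208 genes: the coactivator genes Yap1 and Wwtr1, the TEAD genes Tead1, Tead2 and Tead4, the target genes Ankrd1, Axl and Amotl2, and the regulator genes Lats2 and Ajuba. All 10 were in the table and passed the filter on low counts. Messenger RNA was sequenced in 9 libraries, 3 replicates in each of 3 groups. Scramble cells had shScramble, a short hairpin RNA without a target, plus an empty vector. In knockdown cells the hairpin was shEya3, aimed at Eya3 (a phosphatase and transcriptional coactivator), again with the empty vector. In add-back cells shEya3 was combined with IKK2-SE, an always-active IKK2 kinase, which drives NF-kB signalling. Every group was kept in puromycin to hold the hairpin and was selected on mCherry for the vector or IKK2-SE. Each arm rests on 1 hairpin, separate transductions are not stated, and no group carried IKK2-SE with the scramble hairpin. The hairpin is called KD2 in the sample titles and KD3 in the table.

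YAP, encoded by Yap1, and TAZ, encoded by Wwtr1, are coactivators without a DNA-binding domain of their own. In the nucleus they bind TEAD factors, which recognise the motif GGAATG, and together they switch on genes of growth, adhesion and matrix. The Hippo kinases LATS1 and LATS2 phosphorylate YAP and TAZ and hold them in the cytoplasm, where they are degraded. Several targets feed back on the pathway, among them LATS2 and AMOTL2, and in breast carcinoma cells YAP and TAZ activity is tied to invasion and drug tolerance. That activity is set largely by phosphorylation and location of the proteins, which counts of transcripts do not measure.

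Library totals ran from 63601403 to 81534534 counts. Levels are given in TMM-scaled CPM, a share of each library's counts, and differences as log2 fold changes ± SE from edgeR's quasi-likelihood test over all 16766 tested genes, with a call at a Benjamini-Hochberg adjusted p below 0.05. Fewer cells that express a gene and less RNA per cell cannot be told apart in such libraries. Eya3 itself averaged 62.7 ± 1.63 CPM with the scramble hairpin, against 25 ± 0.602 CPM in knockdown and 26.6 ± 2.21 CPM in add-back libraries (SD, n = 3). The first principal component held 74.3% of the variance and set the 3 scramble libraries against the other 6. Of 7 epithelial markers only Krt8 reached 1 CPM in every library, and the defining markers Epcam and Cdh1 were below 0.1 CPM in each group. The summed level of these markers ran from 596 to 649 CPM in scramble, 1254 to 1387 CPM in the knockdown and 1029 to 1105 CPM in the add-back libraries. That sum is nearly all Krt8 (628, 1329 and 1073 CPM in the 3 groups). With knockdown Krt8 rose, as did Krt5 at a far lower level (0.0453 to 0.32 CPM). Krt14 (1.24 to 0.305 CPM) and Krt19 (0.606 to 0.0595 CPM) fell, and Krt18 did not pass edgeR's test. The part of these markers in the changes below was not tested. Of the leukocyte markers only Lyz2 reached 1 CPM in every library, and group means of Ptprc were at most 0.0571 CPM. The 7 leukocyte markers summed to 16.1 to 18.6, 15.1 to 18.1 and 19.8 to 21.5 CPM in the 3 groups. The 5 endothelial markers summed to 4.65 to 5.38 CPM in scramble, 0.425 to 0.853 CPM in the knockdown and 0.961 to 1.27 CPM in the add-back libraries, and their part was not tested either. Cdh5 made up most of the scramble sum, at 4.36 CPM. The 7 fibroblast markers summed to 51.8 to 54.3, 50 to 55.9 and 56.1 to 59.5 CPM in the 3 groups, with Thy1 at no counts. That sum is mostly Pdgfra (47.9, 39.8 and 42.7 CPM), and single markers moved in opposite directions. With knockdown Pdgfrb rose (1.24, 7.08 and 10.7 CPM in the 3 groups), as did Col1a2 (0.0682, 4.18 and 1.66 CPM) and Dcn (0, 0.0647 and 0.713 CPM), while Pdgfra and Col1a1 (3.96, 2.59 and 1.52 CPM) fell. Their part in the changes below was not tested. Pgr had no counts, while Esr1 stood at 11.8, 16.4 and 20.1 CPM and Erbb2 at 55.4, 63.5 and 63.8 CPM.

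The coactivator genes were both expressed in all libraries, and Yap1 differed more between the groups than Wwtr1 did. Yap1 (chromosome 9, 7931999 to 8004596, minus strand, GRCm38/mm10) stood at 120, 121 and 116 CPM in the scramble libraries, 144, 142 and 143 CPM in the knockdown libraries and 136, 139 and 137 CPM in the add-back libraries. The knockdown libraries were highest and no groups overlapped. Relative to scramble, Yap1 rose by 0.26 ± 0.03 with knockdown (edgeR adjusted p = 4.77e-06) and by 0.20 ± 0.03 with add-back (edgeR adjusted p = 7.68e-05). From knockdown to add-back it differed by -0.06 ± 0.03, which did not pass (edgeR adjusted p = 0.349). Wwtr1 (chromosome 3, 57455649 to 57575910, minus strand) stood at 164, 163 and 166 CPM, at 169, 172 and 178 CPM, and at 176, 183 and 182 CPM, in that order of groups. The knockdown libraries lay above the scramble libraries and overlapped the add-back libraries. Wwtr1 rose by 0.14 ± 0.03 from scramble to add-back (edgeR adjusted p = 0.0034), while its difference of 0.07 ± 0.03 between knockdown and scramble did not pass (edgeR adjusted p = 0.0868).

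The ratio of Wwtr1 to Yap1 counts within a library depends on no scaling between libraries, and is not divided by gene length here. It was 1.37, 1.35 and 1.43 in the scramble, 1.17, 1.21 and 1.25 in the knockdown and 1.30, 1.32 and 1.33 in the add-back libraries. The knockdown libraries were lowest, the add-back libraries lay between, and no groups overlapped. On the log2 scale the knockdown ratio differed from scramble by -0.191 and the add-back ratio from knockdown by 0.122 (exact permutation test, two-sided, p = 0.1 for each, the smallest that 3 against 3 allow, and 0.113 adjusted over the 18 such tests made). With these group sizes the test could not pass the 0.05 threshold.

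The promoters of both coactivator genes hold a GGAATG match, shown in capitals within 40 bases read on the gene's strand from RefSeq sequence (GRCm38.p6). They are shown because the coactivators act through this motif. The first base of the match lies at -141 in Yap1 and -136 in Wwtr1 relative to the annotated start site, which counts as 1. From a further annotated start site of Wwtr1 the same match lies at -170.
Yap1: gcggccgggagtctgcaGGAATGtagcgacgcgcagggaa
Wwtr1: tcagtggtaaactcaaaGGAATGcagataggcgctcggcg

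**Figure D1:**
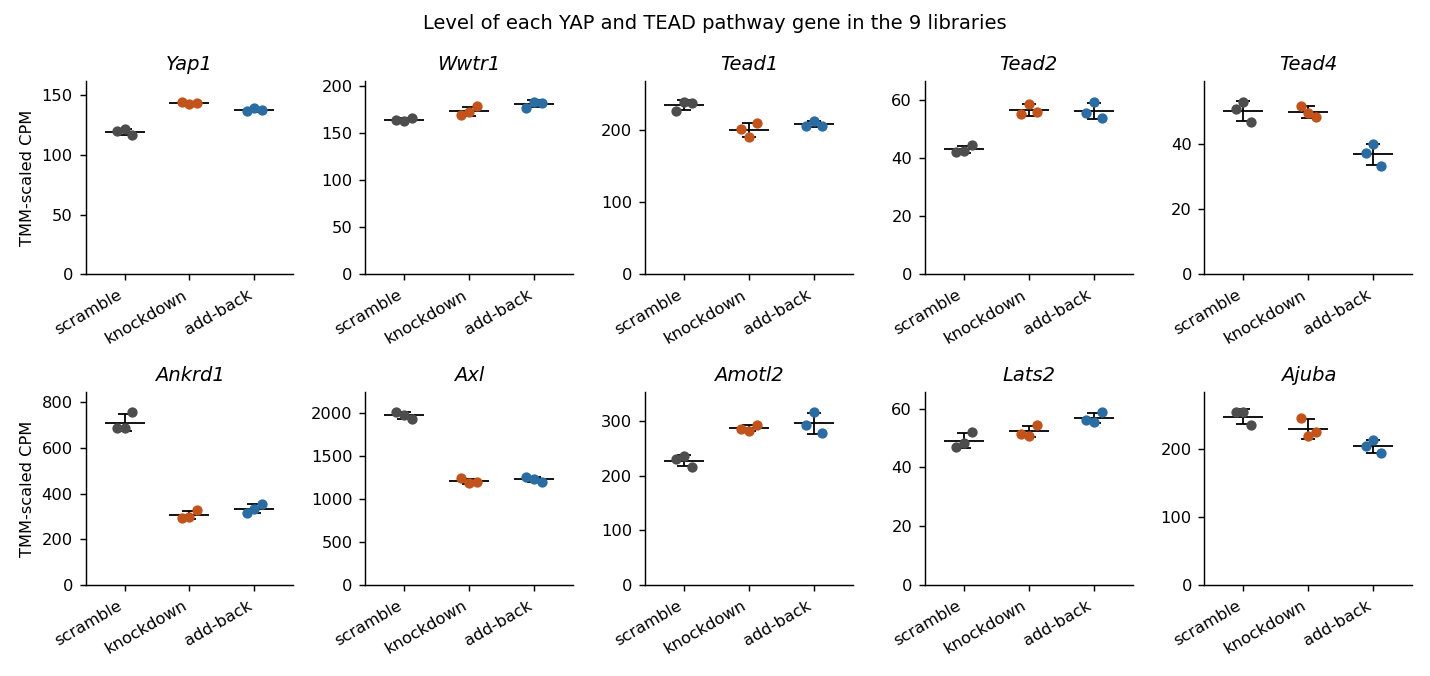
Each panel plots the TMM-scaled CPM of 1 gene on a linear axis from 0 for the scramble, knockdown and add-back libraries, with points for libraries and bars for mean ± SD (n = 3). Ankrd1 and Axl fell in both groups with the Eya3 hairpin, from means of 710 and 1967 CPM with scramble to 307 and 1205 CPM with knockdown, and Tead4 was lower in the add-back cells (36.7 CPM).

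The TEAD genes encode the DNA-binding partners of YAP and TAZ, and they moved in different directions. Tead1 (chromosome 7, 112679318 to 112906807, plus strand) stood at 226, 239 and 237 CPM in scramble, 202, 190 and 210 CPM in the knockdown and 205, 213 and 206 CPM in the add-back libraries. Every scramble library was above every other library. Tead1 fell by 0.23 ± 0.04 with knockdown (edgeR adjusted p = 0.000185) and differed from scramble by -0.17 ± 0.04 with add-back (edgeR adjusted p = 0.00194). Tead2 (chromosome 7, 45215753 to 45233644, plus strand) went the other way, from 42.2, 42.6 and 44.6 CPM in the scramble to 55.2, 58.9 and 56.0 CPM in the knockdown and 55.8, 59.5 and 54.0 CPM in the add-back libraries. The scramble libraries were lowest, and the other groups overlapped. Tead2 rose by 0.40 ± 0.05 and 0.39 ± 0.05 in the knockdown and add-back cells against scramble (edgeR adjusted p = 1.98e-06 and 2.73e-06).

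Tead4 (chromosome 6, 128224288 to 128300823, minus strand) stood at 50.7, 52.8 and 46.7 CPM in the scramble libraries, 51.5, 49.4 and 48.1 CPM in the knockdown libraries and 37.1, 39.8 and 33.3 CPM in the add-back libraries. The scramble and knockdown libraries overlapped, and every add-back library was below all of them. It fell by 0.43 ± 0.06 from knockdown to add-back (edgeR adjusted p = 0.000173) and by 0.45 ± 0.06 from scramble to add-back (edgeR adjusted p = 1.19e-05), and differed by -0.01 ± 0.06 between knockdown and scramble (edgeR adjusted p = 0.894). Tead3, the fourth TEAD gene and not among the 10, stood at 11.9, 11.8 and 13.3 CPM in scramble, 23.4, 23.9 and 24.4 CPM in the knockdown and 23.3, 25 and 25.4 CPM in the add-back libraries. It rose by 0.95 ± 0.06 with knockdown and 0.99 ± 0.06 with add-back, each against scramble (edgeR adjusted p = 1.3e-09 and 8.84e-10), the largest relative change among the TEAD genes in those comparisons. Its level was the lowest of the 4 per kilobase of exon in every group.

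Levels per kilobase of merged exons were used to set the TEAD genes beside each other. The merged length (13570 bases for Tead1, 3598 for Tead4) takes in every annotated exon, and which isoforms the cells used was not tested. Shares and order between the genes therefore depend on that length. Without the division, Tead2 averaged 56.7 CPM and Tead4 49.7 CPM in the knockdown cells, the reverse of their order per kilobase. Tead1 made up 40.3%, 41% and 41.9% of the summed TEAD level in the scramble libraries, 33.6%, 32.0% and 35.0% in the knockdown libraries and 37.3%, 36.5% and 38.4% in the add-back libraries. It held the largest share in every library, lowest in the knockdown cells. The Tead2 share was 21.4 ± 0.801% in the scramble, 26.9 ± 1.15% in the knockdown and 28.8 ± 0.203% in the add-back cells, and the Tead3 share 4.37 ± 0.33%, 8.10 ± 0.181% and 8.94 ± 0.551% (SD, n = 3). The Tead4 share was 33.1 ± 1.75% in the scramble, 31.4 ± 1.08% in the knockdown and 24.9 ± 1.26% in the add-back cells. No 2 groups overlapped for Tead1, Tead2 or Tead3, and for Tead4 the scramble and knockdown libraries overlapped. The shares of a library add up to the whole, so their shifts are not independent. From knockdown to add-back the levels of Tead1, Tead2 and Tead3 differed by 0.053, -0.007 and 0.039. None of these differences passed (edgeR adjusted p = 0.528, 0.965 and 0.788). The exact permutation p was 0.1 for each difference in share without overlap, the smallest possible, and 0.3 for Tead4 between knockdown and scramble. The summed TEAD level itself was 42 ± 0.822, 44 ± 0.343 and 41 ± 1.76 CPM per kilobase in the 3 groups.

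**Figure D2:**
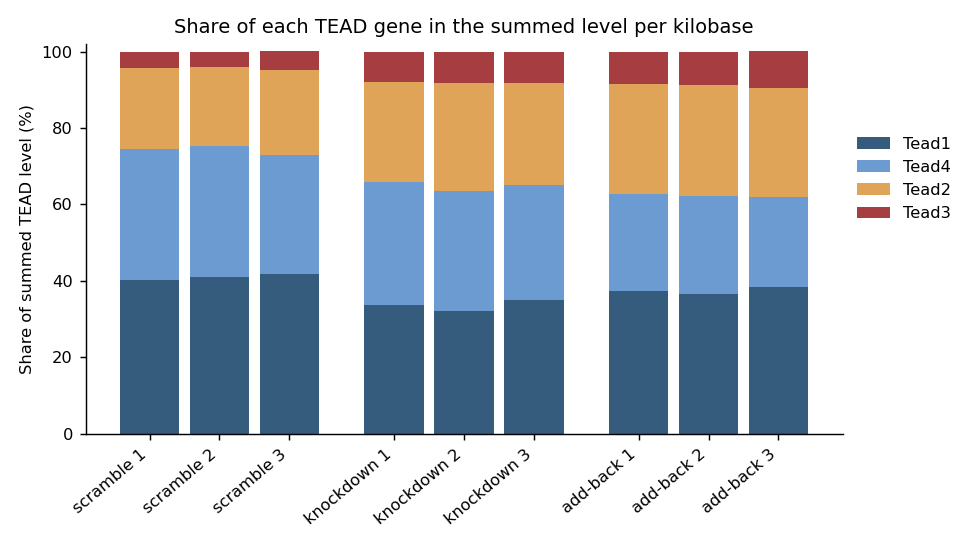
Stacked bars give, for each of the 9 libraries, the share in percent of Tead1, Tead4, Tead2 and Tead3 in the summed TEAD level per kilobase of merged exons. Tead2 and Tead3 held larger shares in the knockdown libraries than in the scramble libraries, and the Tead4 share was smallest in the add-back libraries (24.9 ± 1.26%).

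Ankrd1, Axl and Amotl2 are widely used readouts of YAP and TAZ activity, and they did not change in 1 direction. Ankrd1 (chromosome 19, 36111961 to 36120099, minus strand), which encodes an ankyrin repeat protein of muscle and wound repair, stood at 688, 688 and 754 CPM in scramble, 295, 298 and 328 CPM in the knockdown and 315, 332 and 354 CPM in the add-back libraries. Every scramble library was far above the others, which overlapped. Ankrd1 was 2.31-fold lower in the knockdown than in the scramble cells (log2 -1.21 ± 0.05, edgeR adjusted p = 9.8e-12) and 2.13-fold lower in the add-back cells (log2 -1.09 ± 0.05, edgeR adjusted p = 3.7e-11). Its difference of 0.12 ± 0.05 between add-back and knockdown did not pass (edgeR adjusted p = 0.187).

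Axl (chromosome 7, 25757273 to 25788705, minus strand), a receptor tyrosine kinase linked to invasion, had 2002, 1977 and 1923 CPM in scramble, 1238, 1183 and 1194 CPM in the knockdown and 1256, 1228 and 1197 CPM in the add-back libraries. Again the scramble libraries lay above both other groups, and those overlapped. Axl was 1.63-fold lower in the knockdown cells (log2 -0.71 ± 0.03, edgeR adjusted p = 5.23e-11) and 1.60-fold lower in the add-back cells (log2 -0.68 ± 0.04, edgeR adjusted p = 9.17e-11) than in the scramble cells. Amotl2 (chromosome 9, 102716672 to 102733418, plus strand), an angiomotin family scaffold that binds YAP and restrains it, went the other way. It stood at 231, 235 and 216 CPM in scramble, 285, 282 and 293 CPM in the knockdown and 293, 315 and 277 CPM in the add-back libraries. The scramble libraries were below all others. Amotl2 rose by 0.34 ± 0.05 in the knockdown and by 0.38 ± 0.05 in the add-back cells against scramble (edgeR adjusted p = 1.01e-05 and 3.26e-06). From knockdown to add-back, Axl differed by 0.03 ± 0.04 and Amotl2 by 0.04 ± 0.05, and neither passed (edgeR adjusted p = 0.753 and 0.703).

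The promoter windows of these target genes, 250 bases before to 50 bases after the start site annotated by RefSeq (GRCm38.p6), are printed because the genes moved in different directions while each holds the TEAD motif. Capitals mark GGAATG, or CATTCC where the motif reads on the other strand. The Ankrd1 window is chr19:36119795-36120094 (minus strand) with matches at -210 and -123. The Axl window is chr7:25788684-25788983 (minus strand) with a match at -233, and the Amotl2 window chr9:102717554-102717853 (plus strand) with a match at -65. The Ankrd1 and Amotl2 windows lie inside the gene spans given above, whose outer ends differ from the RefSeq start sites.
Ankrd1: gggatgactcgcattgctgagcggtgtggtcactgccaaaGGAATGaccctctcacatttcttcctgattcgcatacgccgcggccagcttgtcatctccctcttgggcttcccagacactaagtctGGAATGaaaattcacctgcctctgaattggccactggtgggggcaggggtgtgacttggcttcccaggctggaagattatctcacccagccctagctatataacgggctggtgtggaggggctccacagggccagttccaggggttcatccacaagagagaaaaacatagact
Axl: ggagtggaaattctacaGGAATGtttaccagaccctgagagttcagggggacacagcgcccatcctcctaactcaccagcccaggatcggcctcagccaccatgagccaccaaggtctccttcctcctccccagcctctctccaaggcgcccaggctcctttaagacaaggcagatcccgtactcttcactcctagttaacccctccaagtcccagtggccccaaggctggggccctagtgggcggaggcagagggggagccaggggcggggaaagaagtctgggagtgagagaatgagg
Amotl2: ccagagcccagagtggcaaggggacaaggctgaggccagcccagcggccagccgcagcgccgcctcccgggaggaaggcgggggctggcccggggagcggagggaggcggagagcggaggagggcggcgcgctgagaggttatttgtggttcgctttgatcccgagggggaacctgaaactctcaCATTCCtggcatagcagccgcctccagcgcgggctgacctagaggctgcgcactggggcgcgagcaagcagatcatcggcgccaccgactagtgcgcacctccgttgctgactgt
Of the 8 genes with a window in the sequence table, 7 held at least 1 match in at least 1 window: Ankrd1, Axl, Amotl2, Yap1, Wwtr1, Lats2 and Ajuba. The Tead2 window held none, and 1 of the 2 Lats2 windows held none. Among all genes with such a window, 16.6% held a match, and among the tested ones 14.9%. A match of 6 letters describes the sequence and does not show binding.

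Lats2 and Ajuba act on the kinase step, Lats2 as a kinase of YAP and TAZ and Ajuba as a LIM-domain protein that inhibits LATS kinases. Lats2 (chromosome 14, 57689662 to 57758388, minus strand) stood at 47.1, 48.2 and 52.1 CPM in scramble, 51.5, 50.8 and 54.5 CPM in the knockdown and 56.3, 55.5 and 58.7 CPM in the add-back libraries. The add-back libraries were highest, and the scramble and knockdown libraries overlapped. It rose by 0.21 ± 0.05 from scramble to add-back (edgeR adjusted p = 0.00132), and its differences of 0.09 ± 0.05 between knockdown and scramble and 0.12 ± 0.05 between add-back and knockdown did not pass (edgeR adjusted p = 0.128 and 0.133). Without scramble replicate 3 the first of these passed (edgeR adjusted p = 0.0314). An annotated transcript unit, Gm49361, shares 42.4% of the Lats2 exon bases on the same strand and was listed at 0 in every library.

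Ajuba (chromosome 14, 54567472 to 54577558, minus strand) stood at 254, 254 and 236 CPM in scramble, 246, 219 and 226 CPM in the knockdown and 204, 213 and 194 CPM in the add-back libraries. Every add-back library was below every other library, and the scramble and knockdown libraries overlapped. Ajuba fell by 0.28 ± 0.05 from scramble to add-back (edgeR adjusted p = 0.000106) and by 0.18 ± 0.05 from knockdown to add-back (edgeR adjusted p = 0.028). The latter call was lost without knockdown replicate 1 (adjusted p = 0.135), add-back replicate 1 (0.0667) or add-back replicate 3 (0.125), and with library totals as the scaling (0.0507). Its difference of -0.11 ± 0.05 between knockdown and scramble did not pass (edgeR adjusted p = 0.0732), and passed with library totals (0.00949), upper-quartile scaling (0.0213), no filter on low counts (0.0489), without scramble replicate 3 (0.0291) and without knockdown replicate 1 (0.0114). The motif stretches of these regulators are shown for comparison with those of the coactivators, again on the gene's strand and from RefSeq (GRCm38.p6), with matches at 5 in Lats2 and at -186 and -164 in Ajuba, both of the latter as CATTCC. The single capital at an end of each Ajuba stretch belongs to its other match.
Lats2: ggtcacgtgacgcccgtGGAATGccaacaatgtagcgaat
Ajuba, first match: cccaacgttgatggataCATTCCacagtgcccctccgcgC
Ajuba, second match: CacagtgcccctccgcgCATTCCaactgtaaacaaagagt

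**Figure D3:**
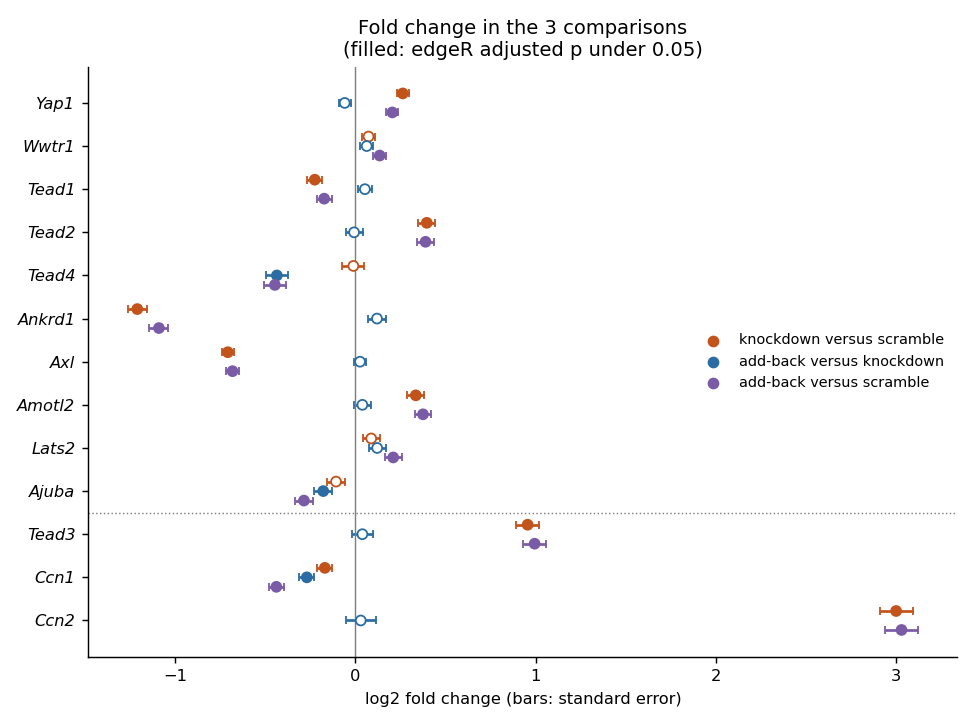
Points give the log2 fold change of the 10 genes and, below the dotted line, of Tead3, Ccn1 and Ccn2 in the 3 comparisons, bars give the SE, and filled points passed edgeR's test at an adjusted p below 0.05. Against scramble the knockdown and add-back points lie close together for most genes. Tead4, Ccn1 and Ajuba were lower in add-back than in knockdown cells (log2 -0.43, -0.27 and -0.18).

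Between knockdown and scramble cells 3 of the 10 genes rose (Yap1, Tead2 and Amotl2), 3 fell (Tead1, Ankrd1 and Axl) and 4 did not pass. Over all tested genes 57.5% were called in this comparison, 27.7% higher and 29.9% lower, so the share of the 10 genes called was near that of the transcriptome. Their median log2 change was 0.03, beside -0.001 over all tested genes, and the median size of change was 0.24 beside 0.32. Between add-back and knockdown cells none rose and 2 fell (Tead4 and Ajuba), where 10.4% of all tested genes were called, 5.61% higher and 4.82% lower. With library totals as the scaling 65.9% of all calls in that comparison were higher, against 53.8% with TMM, and 1 of the 10 genes was called (Tead4). Between add-back and scramble cells 5 rose (Yap1, Wwtr1, Tead2, Amotl2 and Lats2) and 5 fell (Tead1, Tead4, Ankrd1, Axl and Ajuba), where 55.8% were called, 27% higher and 28.7% lower. An F test over the 3 groups called all 10, beside 60.1% of all tested genes. The comparisons against scramble share the scramble libraries, and both comparisons with the knockdown cells share the knockdown libraries.

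Per kilobase of merged exons, Axl and Ankrd1 had the highest levels of the 10 in the scramble cells, at 391 ± 8 and 246 ± 13.2 CPM per kilobase (SD, n = 3). Ajuba followed at 68.0 ± 2.95, then Amotl2 at 36.2 ± 1.55 and Wwtr1 at 34.4 ± 0.269, which overlapped each other. Tead1 was next at 17.3 ± 0.512, followed by Tead4 at 13.9 ± 0.855 and Yap1 at 12.9 ± 0.289, which overlapped, then Tead2 at 9 ± 0.269 and Lats2 at 7.05 ± 0.377. The Lats2 level was divided by its full exon length, of which 42.4% is shared with Gm49361. Its rank without the shared bases was not tested. Wwtr1 therefore stood above Yap1 per kilobase, also in the knockdown cells (36.2 ± 0.968 and 15.4 ± 0.0986) and the add-back cells (37.8 ± 0.763 and 14.8 ± 0.17). In the knockdown cells Yap1 passed Tead1 and Tead4 in mean level, with Yap1 and Tead1 overlapping, and Tead1 and Tead4 overlapping. In the add-back cells no neighbours in the order overlapped, and Tead4 stood below Tead2 at 10.2 ± 0.91 against 11.8 ± 0.59.

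A published set of 22 conserved YAP and TAZ target genes, which includes Ankrd1, Axl, Amotl2 and Lats2, was read as a wider list. Of its 19 tested genes 9 rose, 7 fell and 3 did not pass between knockdown and scramble cells, where 27.7% of all tested genes were called higher and 29.9% lower, with a median log2 change of 0.09 beside -0.001 over all genes. Ccn2, a matricellular protein gene and a textbook YAP target, stood at 29.1, 29.7 and 32.2 CPM in scramble, 208, 247 and 272 CPM in the knockdown and 232, 260 and 250 CPM in the add-back libraries. Its rise of 3.00 ± 0.09 with knockdown was the largest change of the list (edgeR adjusted p = 5.22e-11). An annotated antisense transcript, Gm15270, overlaps 23.2% of the Ccn2 exon bases. It had 13 to 22 counts in the scramble and 113 to 206 counts in the other libraries, beside 1879 to 2424 and 16650 to 20447 for Ccn2. Reads of Gm15270 and Ccn2 in the overlap cannot be told apart without the strand setting of the counting. Ccn1, its close relative and the other textbook target, instead fell by 0.17 ± 0.04 in the knockdown cells and by a further 0.27 ± 0.04 from knockdown to add-back (edgeR adjusted p = 0.00215 and 0.000343). The arrest gene Gadd45a moved the same way as Ccn1, falling by 0.34 ± 0.06 and 0.25 ± 0.06 in the same comparisons. The latter call was lost without knockdown replicate 3 (edgeR adjusted p = 0.0853) or add-back replicate 1 (0.0728).

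Other genes of the list also moved in both directions. Asap1, Crim1, F3 and Tgfb2 are named because, of the list's genes not chosen beforehand, they had the smallest F-test adjusted p in these libraries. They therefore do not stand for the rest of the list. Asap1, an Arf GTPase-activating protein gene, rose by 1.26 ± 0.04 and the growth factor binder Crim1 by 0.71 ± 0.04 with knockdown (edgeR adjusted p = 7.2e-14 and 4.6e-10). F3, which encodes tissue factor, rose by 0.78 ± 0.07, and Tgfb2, a TGF-beta ligand, fell by 1.47 ± 0.11 (edgeR adjusted p = 2.67e-08 and 7.31e-09). Tgfb2 averaged 9.48 ± 1.36 CPM with scramble and 3.41 ± 0.112 CPM with knockdown. From knockdown to add-back 2 of the 19 rose (Crim1 by 0.39 ± 0.04 and Arhgef17 by 0.15 ± 0.03) and 3 fell (Ccn1, Gadd45a and F3, the last by 0.31 ± 0.06), where 10.4% of all tested genes were called, with a median of 0.03 beside 0.001. Between add-back and scramble cells 11 rose and 7 fell, where 27% of all tested genes were called higher and 28.7% lower, with a median of 0.21 beside -0.002. Igfbp3 and Fjx1 had no counts in any library and Nt5e at most 6, so they were not tested.

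**Figure D4:**
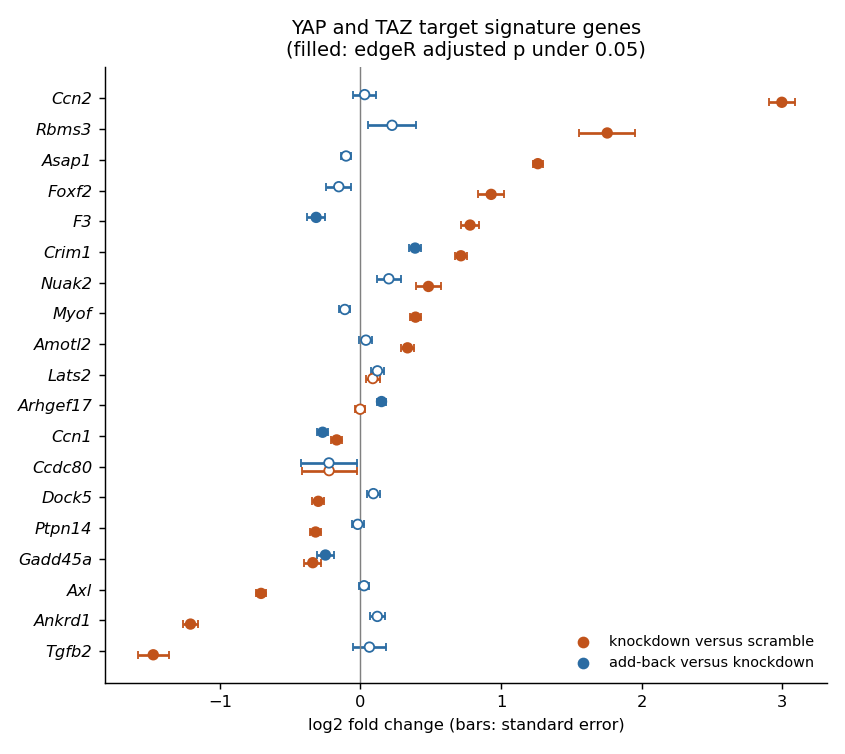
Points give the log2 fold change of the 19 tested target signature genes for knockdown versus scramble and for add-back versus knockdown, ordered by the former, with bars for the SE and filled points for an edgeR adjusted p below 0.05. The knockdown changes run from -1.47 for Tgfb2 to 3.00 for Ccn2, while the add-back changes lie between -0.31 and 0.39.

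Of 16 Hippo kinase and scaffold genes, 3 rose and 10 fell between knockdown and scramble cells, beside 27.7% higher and 29.9% lower over all tested genes, with a median log2 change of -0.12 beside -0.001 over all genes. Stk3, which encodes the kinase MST2, the scaffold gene Sav1 and the LATS cofactor gene Mob1b rose, by 0.36 ± 0.06, 0.43 ± 0.04 and 0.19 ± 0.05. Among the falls were Wwc1, which encodes the upstream activator KIBRA, by 0.50 ± 0.04, and the kinase genes Taok3 by 0.68 ± 0.06 and Taok2 by 0.51 ± 0.04. The scaffold gene Rassf1 fell by 0.35 ± 0.06. Wwc1, Taok3, Taok2 and Rassf1 are named by the same rule, the smallest F-test adjusted p among genes not chosen beforehand. Lats1, the relative of Lats2, fell by 0.18 ± 0.04 (edgeR adjusted p = 0.000896). Nf2, which encodes the upstream activator merlin, stood at 135, 135 and 138 CPM in scramble, 126, 124 and 125 CPM in the knockdown and 167, 171 and 166 CPM in the add-back libraries. The knockdown libraries were lowest, the add-back libraries highest, and none of the groups overlapped. Nf2 fell by 0.12 ± 0.03 with knockdown and rose by 0.42 ± 0.03 from knockdown to add-back (edgeR adjusted p = 0.00447 and 2.33e-07). In the latter comparison 1 of the 16 rose (Nf2) and 2 fell (Wwc1 by 0.18 ± 0.04 and Rassf1 by 0.45 ± 0.06), beside 10.4% of all tested genes called. Between add-back and scramble cells 5 rose and 9 fell, beside 27% higher and 28.7% lower over all tested genes. The call of Lats1 there, a fall by 0.10 ± 0.04 (edgeR adjusted p = 0.0448), was lost in 10 of 18 alternatives, among them the fits without scramble replicate 2 or 3, without any 1 of the knockdown replicates, and without add-back replicate 1 or 2 (0.056 to 0.21). Other falls among the 16 were lost in some alternatives too. Their adjusted p reached 0.16 between knockdown and scramble and 0.191 between add-back and scramble. The counts of falls therefore depend on the processing.

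The angiomotin and LIM-domain regulators, which include Amotl2 and Ajuba, had 6 tested genes, with Wtip at no counts. The counts called here and among the TEAD and VGLL genes stand beside 57.5% of all tested genes called between knockdown and scramble, 10.4% between add-back and knockdown and 55.8% between add-back and scramble. In the knockdown cells Amotl2 rose, while Amotl1 and the phosphatase gene Ptpn14 fell by 0.27 ± 0.04 and 0.32 ± 0.04 (edgeR adjusted p = 8.71e-06 and 4.05e-06). Amot and Limd1 differed by -0.01 ± 0.06 and -0.09 ± 0.04 and did not pass. Limd1 passed as lower with library totals (adjusted p = 0.0142) and upper-quartile scaling (0.0302). From knockdown to add-back none of the 6 rose and Ajuba fell, and against scramble 1 rose and 3 fell. Of the 6 tested TEAD and VGLL genes, 2 rose (Tead2 and Tead3) and 2 fell (Tead1 and Vgll3) with knockdown, 1 rose (Vgll3) and 1 fell (Tead4) from knockdown to add-back, and 2 rose and 3 fell from scramble to add-back. Vgll3, which encodes a TEAD cofactor, stood at 33.3, 34.5 and 35.4 CPM in scramble, 18.2, 19.2 and 22.4 CPM in the knockdown and 27, 28.2 and 29.9 CPM in the add-back libraries. No groups overlapped, and the add-back libraries lay between the others. It fell by 0.79 ± 0.07 with knockdown and rose by 0.51 ± 0.07 from knockdown to add-back (edgeR adjusted p = 4.48e-08 and 0.000103). Vgll4, another TEAD cofactor gene, differed by 0.02 ± 0.06 and 0.09 ± 0.06 in these comparisons and did not pass.

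To show whether whole stretches of a chromosome differed, the change of each gene was set beside the median of its 40 nearest tested neighbours. For Ankrd1 the neighbours had a median of 0.23 between knockdown and scramble, opposite in sign to its fall of 1.21. For Axl the median was -0.20, in the direction of its fall by 0.71, and 10 of the 40 had a lower log2 change than Axl. The median around Axl was -0.364 in a block of 21 genes and -0.210 in a block of 81. Amotl2 rose against a neighbour median of -0.12, which was 0.021 in a block of 21 genes, and Yap1, Tead1 and Tead2 changed in blocks with medians of -0.002, -0.009 and -0.04. Wwtr1, at 0.07, lay below its neighbours' median of 0.20, and Ajuba, at -0.11, lay at that of its neighbours (-0.10). Tead3 and Ccn1 lie in blocks with medians of 0.32 and 0.46, the latter opposite in sign to the fall of Ccn1. For add-back against knockdown the medians of the blocks around the 10 genes ran from -0.06 to 0.08, with -0.015 around Tead4. The part of these shifts in the changes of the genes was not tested.

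**Figure D5:**
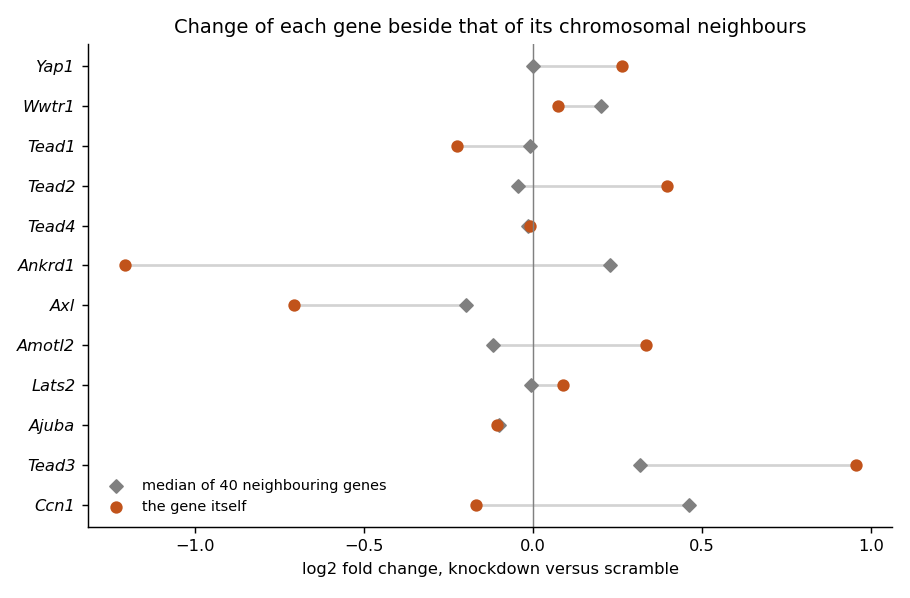
Circles give the log2 fold change between knockdown and scramble cells of the 10 genes, Tead3 and Ccn1, and diamonds the median of the 40 nearest tested genes on the chromosome. Ankrd1 lies at -1.21 with neighbours at 0.23, while Axl lies at -0.71 with neighbours at -0.20.

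The genes with the widest range of group means were Ankrd1, Axl and Tead4, and the genes with the nearest profiles over the 9 libraries were looked up for each, by the root mean square distance of centred log2 CPM among 10906 genes whose log2 CPM averaged 1 or more. Nearest to Ankrd1 were Habp4 (0.048), Zbtb10 (0.061) and Rnf19b (0.062). Habp4, for example, averaged 41.2, 17.8 and 18.7 CPM over scramble, knockdown and add-back libraries. Nearest to Axl were Rapgef1 (0.019), Trappc10 (0.026) and Polrmt (0.029), and nearest to Tead4 were Vgf (0.039), Glis2 (0.055) and Plec (0.059). With most of the variance between scramble and the rest, such nearness describes a shared pattern over 3 groups.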

How the data were processed

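RNA of 9 cultures of 66cl4 cells, in 3 groups of 3, was sequenced after preparation with an mRNA-seq kit, per the labels' protocols. The authors deposited raw counts, 1 whole number per gene symbol and library, without normalization. FastQC, MultiQC, STAR and the mm10 build are named, per the submitters' processing notes. The notes give no versions, and which program counted reads, with which annotation and strand, was not given in the sources used here. Overlapping and antisense genes may therefore share reads. Columns were matched to libraries on arm and replicate number.

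Genes were kept with filterByExpr (minimum count 10, minimum total 15), which left 16766 of 52208. TMM scaling and the quasi-likelihood test of edgeR 4.0.16 (R 4.3.3) were applied to the 9 libraries together, in a model of the 3 groups without other terms, which left 6 degrees of freedom. Benjamini-Hochberg adjustment ran over all tested genes, and the SE is the fold change divided by the square root of F. The procedure was tested on simulated counts. Library totals are in the report, and replicates within a group differed by more than sampling noise (3.87 to 20.9 chi-square units per degree of freedom). The labels call the replicates biological but do not say whether each was transduced separately, and the p-values cover only the variation among these cultures, which may be technical.

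Positions, exon lengths and overlaps are from GENCODE vM21 (GRCm38/mm10), with a position for 97.1% of tested genes. Promoter windows are RefSeq sequences (GRCm38.p6), which cover 8 of the 10 genes, and were read on the gene's strand. The 10 genes, the lists and the tests were chosen with earlier results of these data known. Named beside the 10 were Tead3, Ccn1, Ccn2, Lats1, Nf2, Eya3 and Ikbkb, up to 4 further genes per list with the smallest F-test adjusted p, and the 3 nearest profiles of the 3 genes with the widest range. Of the genes outside that rule, Gadd45a, Arhgef17, Stk3, Sav1 and Mob1b were chosen after their values were seen, to complete small counts. Ikbkb, the mouse gene for IKK2, averaged 47.8, 44.3 and 48.6 CPM over scramble, knockdown and add-back libraries. It differed by 0.134 ± 0.046 from knockdown to add-back and by 0.025 ± 0.046 from scramble to add-back. Neither passed (edgeR adjusted p = 0.0809 and 0.682), though the former passed in some alternatives (0.0243 to 0.0489). These counts therefore do not show expression of the IKK2-SE construct. Alternatives were DESeq2 1.42.0, limma 3.58.1 voom, other scalings and filters, fits of only the groups compared, a replicate block, and leaving out each library.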

Additional observations from a re-analysis of the deposited data

How the results depend on the processing

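Over 18 alternatives and 3 comparisons, the 10 genes gave 540 values, of which 518 kept their direction and their side of the threshold, 11 passed newly, 4 no longer passed (all Ajuba, between add-back and knockdown) and 7 turned direction. All 7 and the 26 of 1404 values that turned among the other named genes belong to differences that did not pass. Between add-back and knockdown 1 of the 10 genes was called with library totals, 4 with the replicate block and 1 to 2 with each library left out, against 2. The genes called over the table were 2678 with the block, against 1749. Left-out libraries gave 1168 to 1800 calls there, with 1168 without knockdown replicate 2. Same-numbered libraries correlated at -0.0111 to 0.123 in their deviations from the group means, and differently numbered libraries at -0.0814 to 0.0464. Whether the numbers pair the libraries was not tested. With the block, Ankrd1 and Lats2 were added between add-back and knockdown (edgeR adjusted p = 0.00298 and 0.0231), and Wwtr1, Lats2 and Ajuba between knockdown and scramble (0.031, 0.0376 and 0.0141).

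Shares of raw CPM without division by exon length differ by construction. They changed by 4.48, 0.161 and 4.64 percentage points for Tead2 (knockdown against scramble, add-back against knockdown, add-back against scramble), by -5.09 for Tead1 and 3.92 for Tead3 between add-back and scramble, and by 0.315 for Tead3 between add-back and knockdown. For Tead4 they changed by 0.291, which turned the sign, by -3.76 and by -3.47. With blocks of 21 genes the neighbour medians were -0.364 for Axl, 0.021 for Amotl2 (turned), 0.165 for Wwtr1, 0.024 for Tead2 (turned), 0.060 for Lats2 (turned) and -0.170 for Ajuba, and with 81 genes 0.15 for Ankrd1, 0.143 for Wwtr1, -0.146 for Tead4 and -0.043 for Ajuba. The cause was not tested.

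Log2 changes that turned between knockdown and scramble were those of Vgll4 (-0.030 with library totals, -0.012 with upper quartiles, -0.042 to 0.064 with libraries left out), Tead4 (-0.058 to 0.033 with libraries left out), Amot (-0.023 to 0.021) and Arhgef17 (0.005 with only the 2 groups, -0.012 to 0.009 with libraries left out). In add-back against knockdown they were those of Tead2 (0.020 with library totals, -0.046 to 0.024 with libraries left out), Ptpn14 (0.008, and -0.040 to 0.009), Mob1b (0.021 with totals, 0.001 with a CPM filter, -0.029 to 0.042 with libraries left out), Amotl2 (-0.009 to 0.083), Ccn2 (-0.066 to 0.121), Taok3 (-0.001 to 0.082) and Taok2 (-0.020 to 0.070). Ikbkb turned to -0.001 between add-back and scramble with upper quartiles. The lowest count of the 10 genes in any library was 2331, for Tead4.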
